A study of Mus musculus with 4 samples.

Results

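Rest, its corepressor Rcor1 and 7 genes used as neuronal markers (Dcx, Tubb3, Stmn2, Nefl, Nefm, Syp and Sncb) were followed across the cell classes of mouse pancreatic islets. These 9 genes were chosen by name, and they are 9 of the 38457 mouse features counted. Islet cells were captured in droplets on the inDrop platform, and their RNA was amplified by the CEL-Seq route, which reads tags near the 3′ end of each transcript. There were 2 libraries of the genotype Sin3A mutant and 2 of the genotype WT. The labels give no allele, Cre driver, strain, age or treatment, and the tissue of all 4 libraries is pancreatic islets. A number ends each library's title and is shared by 1 library of each genotype; after it the libraries are called mutant A, mutant B, WT A and WT B.

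REST, encoded by Rest, is a zinc-finger repressor that binds RE1 elements of neuronal genes in non-neuronal cells and recruits the corepressors CoREST, encoded by Rcor1, and SIN3A. Neurons shut Rest down as they differentiate. Pancreatic endocrine cells are known to lack REST and to share many secretory and synaptic genes with neurons, whereas pancreatic duct cells keep REST. SIN3A is the scaffold of a histone deacetylase complex and was the gene targeted in this study.

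After filtering, mutant A held 1144 cells, mutant B 2382, WT A 1207 and WT B 1793, with median depths of 7605, 4448.5, 9997 and 5306 counts per cell. Pairs of libraries shared 12 to 42 barcodes. Sin3a itself had 42.8 and 17.7 CPM (counts per 1000000 counts) in beta-like cells of mutant A and mutant B, against 26.0 and 41.3 CPM in WT A and WT B. In all non-endocrine cells it had 59.6 and 23.5 CPM in mutant A and mutant B, against 29.1 and 46.5 CPM in WT A and WT B. In both groups of cells the targeted gene was thus higher in the library labelled mutant within A and lower within B. Mesenchymal-like cells had nearly equal levels within B, 22.1 CPM in mutant B and 21.5 CPM in WT B. Since the tags lie near the 3′ end and the deleted part is not given, the Sin3a levels neither check nor contradict the labels. The word "mutant" below means the libraries labelled so. Beta-like cells fell into clusters that each held mostly 1 library. Alpha-like cells instead split by title number. A cluster of 204 held 91 cells of mutant A and 108 of WT A, and a cluster of 764 held 312 of mutant B and 406 of WT B.

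Classes were named from markers in clusters built without the 9 genes and without their relatives. The 4253 endocrine cells comprised 2217 beta-like, 496 cycling beta-like, 968 alpha-like, 81 cycling alpha-like and 491 delta-like cells. The 1758 non-endocrine cells comprised 808 mesenchymal-like, 350 endothelial-like, 319 ductal-like, 83 Schwann-like, 73 macrophage-like, 56 erythroid-like, 47 acinar-like and 22 neuron-like cells. A cluster of 198 cells rich in Ppy stayed unnamed, because only 2 of its class's markers were higher in it, and it is described apart. Levels are given as CPM of all counts in a class, and differences between classes as log2 differences ± SE from edgeR's quasi-likelihood test on the sums per library, with the library as a block. A gene is called where its p, adjusted by Benjamini-Hochberg over all genes tested, is under 0.05.

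Only a few sequences bear on the comparisons that follow. The promoter table of RefSeq (build GRCm38.p6), with windows from 250 bases before to 50 after a gene's start, held 5 of the 9 genes, Rcor1, Dcx, Tubb3, Syp and Sncb. Rest, Stmn2, Nefl and Nefm were not matched. The windows were searched on both strands for the left arm (TCAGCACC) and the right arm (GGACAGCG) of the RE1 element that REST binds. The left arm occurred in 1.65% of all 32851 windows and the right arm in 1.26%, and both arms in the order and spacing of the full element in 5 windows. Of the members, only Tubb3 held the left arm, on the minus strand 121 bases before its RefSeq start, and none held the right arm or the full element. In GENCODE, where Tubb3 starts earlier, at chr8:123411424, the arm lies inside the gene. The 30 bases around it are shown because Tubb3 is the member whose difference changes sign with 22 neuron-like cells, with the arm in capitals, from chr8:123411421-123411450 on the plus strand. The upstream stretches of Syp (chrX:7638330-7638470, plus strand) and Sncb (chr13:54766596-54766845, minus strand) follow because these genes for vesicle and presynaptic proteins were both higher in the A than in the B libraries, and they hold neither arm.
Tubb3 left arm: atctcggtgccGGTGCTGAtgctgcagagc
Syp upstream: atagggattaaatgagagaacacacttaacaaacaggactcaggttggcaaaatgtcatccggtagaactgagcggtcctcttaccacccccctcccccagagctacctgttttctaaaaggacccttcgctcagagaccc
Sncb upstream: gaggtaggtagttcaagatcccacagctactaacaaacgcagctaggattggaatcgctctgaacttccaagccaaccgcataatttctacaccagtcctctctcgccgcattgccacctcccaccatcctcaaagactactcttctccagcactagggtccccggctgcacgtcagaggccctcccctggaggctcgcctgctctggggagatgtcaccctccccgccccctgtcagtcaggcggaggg
A match describes these letters only and is not evidence of binding.

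The members lie at separate loci of GRCm38 except for the 2 neurofilament genes. Rest lies at chr5:77265491-77286432, Rcor1 at chr12:111039351-111115901, Dcx at chrX:143855842-143933311, Tubb3 at chr8:123411424-123422015 and Stmn2 at chr3:8509360-8561606. Syp lies at chrX:7638471-7653256 and Sncb at chr13:54758860-54766595. Nefl (chr14:68083863-68089095, plus strand) lies inside the span of Nefm (chr14:68082590-68124846, minus strand), with overlapping exons over the 3′ end of Nefl. The antisense gene Gm14703 covers the 3′ end of Syp, and Gm20388 spans that of Tubb3 on the same strand. No source used here says whether the counting used strand, so reads of Nefl and Nefm, and of Syp and Gm14703, cannot be told apart with certainty.

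Endocrine cells had almost no Rest, whereas ductal-like, Schwann-like, mesenchymal-like and endothelial-like cells had clear levels of it. All endocrine cells together held 15, 6, 12 and 11 Rest counts in mutant A, mutant B, WT A and WT B, which is 1.99, 0.68, 1.13 and 1.42 CPM, against 52.4, 75.4, 114 and 68.5 CPM in the non-endocrine cells of the same libraries. The lowest non-endocrine value was far above the highest endocrine value, and the log2 difference, endocrine minus non-endocrine, was -5.74 ± 0.36 (edgeR, adjusted p = 1.24e-05, lower in 4 of 4 libraries). The fitted fold was 53.5. Of 16178 genes tested in this comparison, 40.8% were called, 18.8% higher and 22.0% lower in endocrine cells, and of the 9 members 3 were called higher (Nefm, Syp, Sncb) and 3 lower (Rest, Stmn2, Nefl).

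Within the endocrine cells Rest was near its counting limit everywhere. Beta-like cells held 9 and 2 counts in mutant A and mutant B and 7 and 5 in WT A and WT B. Alpha-like cells held 1 and 0 counts in the mutant libraries and 0 and 4 in the WT libraries. Delta-like cells held 2 and 2 counts in the mutant libraries and 3 and 1 in the WT libraries. The Ppy-rich cluster held 0, with an upper limit of 2.61 CPM by the exact 95% Poisson interval, and the neuron-like cells held 1 count, in 1 of 22 cells.

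Among non-endocrine classes, Rest was highest on average in ductal-like cells, with 101 and 113 CPM in mutant A and mutant B and 223 and 118 CPM in WT A and WT B. Schwann-like cells had 76.7 and 76.7 CPM in the mutant libraries and 218 and 86.8 CPM in the WT libraries. Mesenchymal-like cells had 63.4 and 63.9 CPM in the mutant libraries and 119 and 69.4 CPM in the WT libraries, and endothelial-like cells 40.4 and 79.2 CPM against 113 and 58.6 CPM. In every one of these 4 classes WT A was the highest library. The means were 139 ± 56.4, 115 ± 69.3, 78.9 ± 26.8 and 72.8 ± 31.2 CPM (SD, n = 4 libraries) in ductal-like, Schwann-like, mesenchymal-like and endothelial-like cells, so neighbours in this order differed by less than their spread. Macrophage-like cells averaged 21.9 ± 18.3 CPM from 8 counts in all, and acinar-like and erythroid-like cells held 2 and 3 counts.

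Counting cells gave the same contrast. After each cell was thinned to 2000 counts, 0.252% of endocrine cells (10 of 3971) and 14.3% of non-endocrine cells (194 of 1361) had a Rest count, and 282 endocrine and 397 non-endocrine cells were too shallow to enter. Unthinned, the shares were 1.01% and 22.0%, at median depths of 7095 and 3262 counts per cell. The thinned share was 0.189% in beta-like, 0.345% in alpha-like and 0.226% in delta-like cells, against 21.8% in ductal-like cells (95% exact binomial interval 17.01% to 27.2%), 19.6% in Schwann-like, 12.3% in endothelial-like and 14.1% in mesenchymal-like cells. These intervals, like the Poisson intervals of the levels, cover counting error only.

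**Figure D1:**
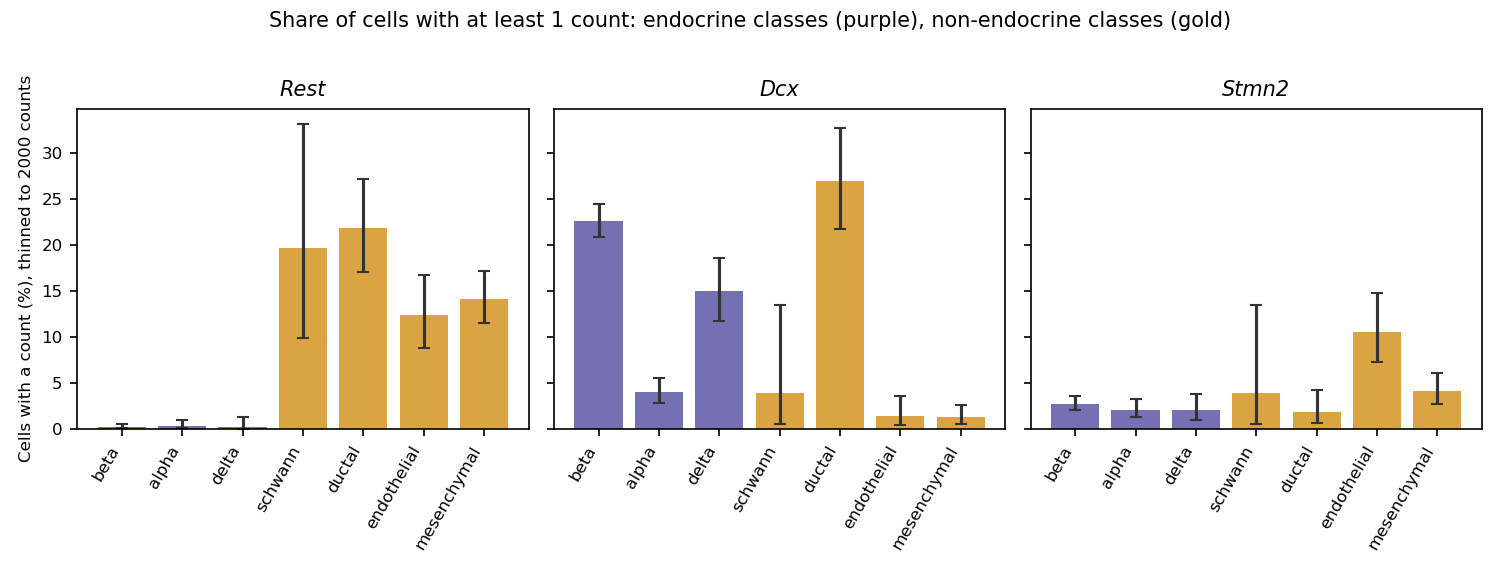
Share of cells (percent, y axis) with at least 1 count of Rest, Dcx or Stmn2 after thinning each cell to 2000 counts, in 3 endocrine (purple) and 4 non-endocrine classes (gold), all 4 libraries pooled; error bars are exact 95% binomial intervals. Rest is near 0 in the endocrine classes, Dcx is shared by beta-like, delta-like and ductal-like cells, and Stmn2 is highest in endothelial-like cells.

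Rcor1, whose protein CoREST links REST to histone deacetylases and the demethylase KDM1A, did not follow Rest. Endocrine cells had 72.0 and 111 CPM in mutant A and mutant B and 105 and 76.7 CPM in WT A and WT B, against 71.4, 103, 107 and 91.0 CPM in the non-endocrine cells of the same libraries. The values of both compartments covered the same range, and the log2 difference was 0.11 ± 0.14 (edgeR, adjusted p = 0.581, higher in 2 of 4 libraries by CPM). By class, Rcor1 averaged 132.5 ± 36.6 CPM in endothelial-like, 127 ± 28.1 in ductal-like, 107 ± 32.1 in alpha-like, 97.98 ± 9.45 in delta-like, 84.7 ± 20.3 in beta-like and 81.9 ± 28.0 CPM in mesenchymal-like cells (SD, n = 4), with no step between neighbours larger than the spread. Neuron-like cells averaged 28.8 CPM, with 0 and 46.4 CPM in mutant A and mutant B and 34.1 and 34.7 CPM in WT A and WT B, and Schwann-like cells 59.99 ± 39.0 CPM. The thinned share of cells with a Rcor1 count lay between 14.7% and 18.5% in the 6 classes other than these last.

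**Figure D2:**
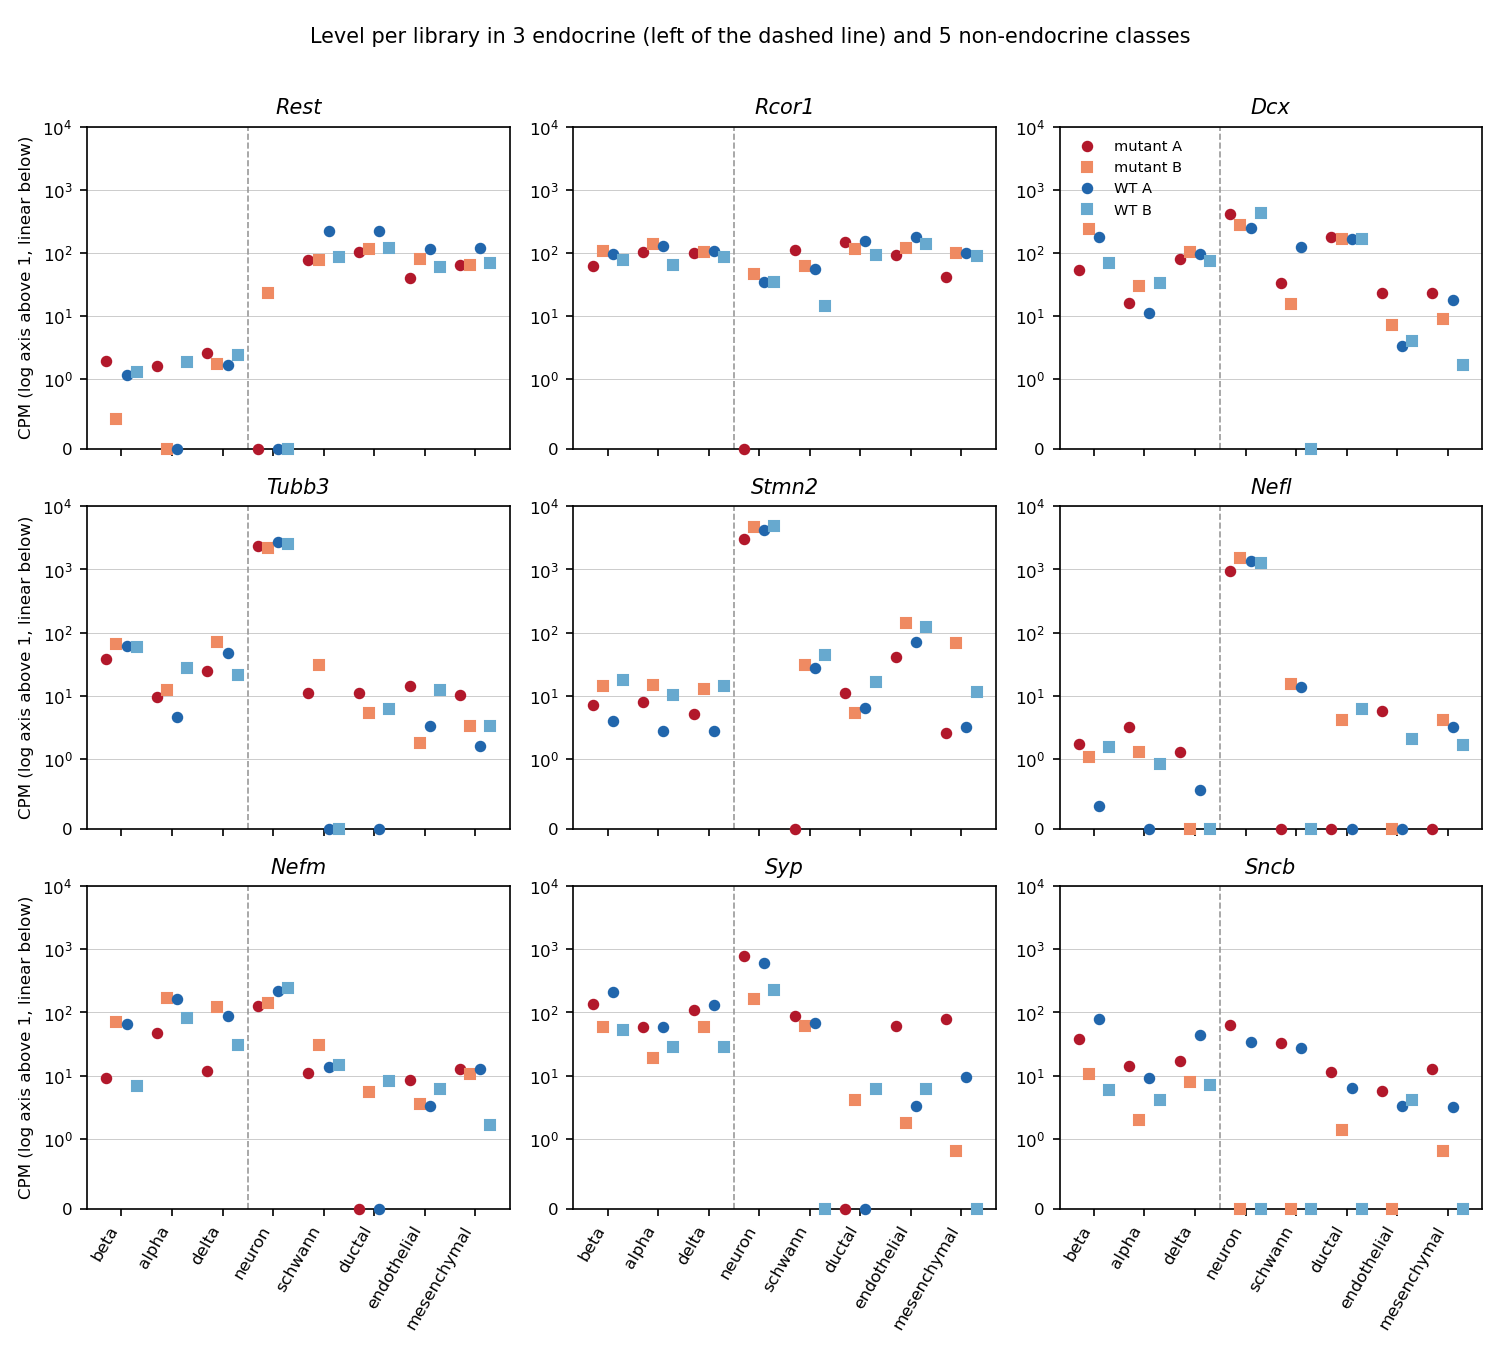
CPM of the 9 genes (y axis, log above 1 and linear below) in 3 endocrine classes, left of the dashed line, and 5 non-endocrine classes, right of it; each point is 1 library (mutant A, mutant B, WT A, WT B). Rest is at or under 2.59 CPM in every endocrine point, Rcor1 averages 81.9 to 132.5 CPM in 6 of the classes and is lower in Schwann-like cells (59.99) and in the few neuron-like cells (28.8), and Tubb3, Stmn2 and Nefl peak in the neuron-like cells.

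The 22 neuron-like cells, 3 and 10 in the mutant libraries and 4 and 5 in the WT libraries, carried much of the non-endocrine signal of the neuronal genes. Their cluster was led by Prph, an intermediate filament gene of peripheral neurons, with Rtn1, Stmn2 and Vip, although the members did not enter the clustering. The 8 neuron markers used for naming (among them Elavl3 and Elavl4) summed to 191 to 270 CPM in all endocrine cells, with none of them at 0, against 3840 and 3616 CPM in neuron-like cells of mutant A and mutant B and 3856 and 4101 CPM in those of WT A and WT B. None of the 8 was among the cluster's 10 leading genes, though 6 were higher in it. Insulin, glucagon and somatostatin transcripts made up a median of 0.168% of a neuron-like cell's counts.

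Of these 22 cells, 22 had a Stmn2 count, 21 Tubb3, 18 Dcx, 18 Nefl, 14 Syp, 13 Nefm, 7 Rcor1, 3 Sncb and 1 Rest. Stmn2, encoding a microtubule-destabilizing phosphoprotein of growth cones, had 3068 and 4636 CPM in the neuron-like cells of mutant A and mutant B and 4299 and 4979 CPM in those of WT A and WT B. Tubb3, a beta-tubulin of neurons, had 2360 and 2202 CPM in the mutant libraries and 2718 and 2576 CPM in the WT libraries, and Nefl, the light neurofilament chain, 944 and 1507 CPM against 1376 and 1271 CPM. All 4 libraries thus held these cells at similar levels, although each value rests on 10 cells or fewer. These cells supplied 94.7% of all non-endocrine Nefl counts, 92.4% of Tubb3, 79.4% of Stmn2, 51.1% of Syp, 46.8% of Nefm, 21.3% of Dcx, 17.6% of Sncb, 1.13% of Rcor1 and 0.174% of Rest. The endocrine comparisons of the members are therefore given with and without them, an alternative chosen after seeing the data.

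Without the neuron-like cells, 41.3% of 16016 genes were called between the compartments, 19.3% higher and 22.1% lower in endocrine cells. Of the members, 8 could then be tested; 5 were called higher (Dcx, Tubb3, Nefm, Syp, Sncb) and 2 lower (Rest, Stmn2), and Nefl was too low to enter the test. The difference of Rest was -5.83 ± 0.36 (edgeR, adjusted p = 1.14e-05) and that of Rcor1 0.04 ± 0.14 (adjusted p = 0.855).

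**Figure D3:**
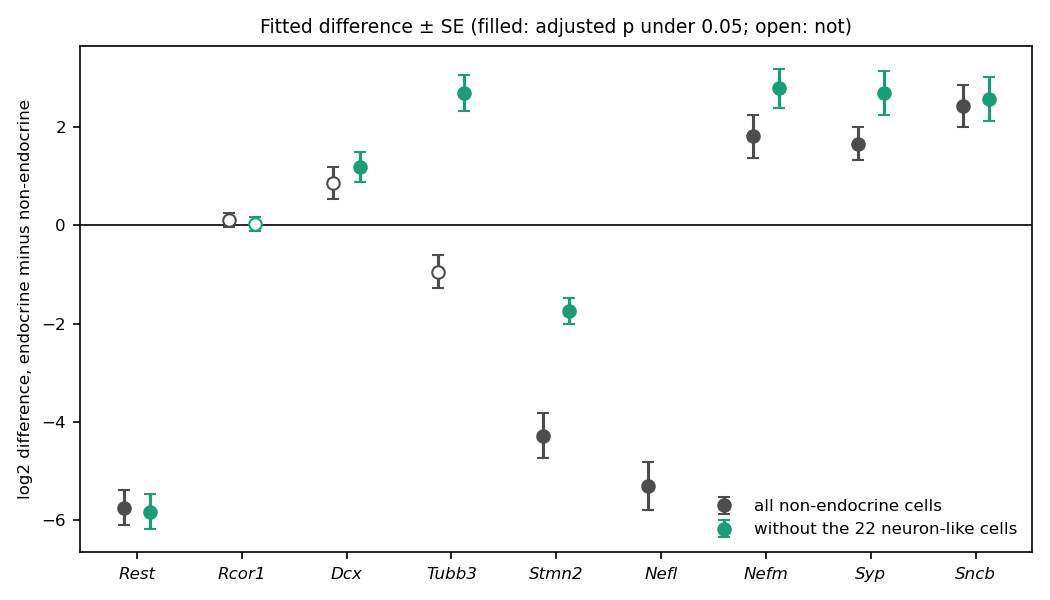
Log2 difference, endocrine minus non-endocrine (y axis), of the 9 genes (x axis) with its SE, from sums per library (n = 4 libraries), with all non-endocrine cells (grey) and without the 22 neuron-like cells (green); filled points have an adjusted p under 0.05. Tubb3 lies at -0.95 with and at 2.70 without these cells, Rest lies below -5.7 in both, and Nefl has no value without them.

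Dcx, encoding doublecortin, a microtubule-binding protein of migrating neurons, was present in beta-like, delta-like and ductal-like cells and low in alpha-like, endothelial-like and mesenchymal-like cells. Beta-like cells had 53.9 and 240 CPM in mutant A and mutant B and 177 and 68.9 CPM in WT A and WT B. Ductal-like cells had 179 and 164 CPM in the mutant libraries and 165 and 163 CPM in the WT libraries, from 15 to 179 cells a library. The ductal-like level differed little between libraries (168 ± 7.51 CPM, SD, n = 4), whereas the beta-like level spread widely (135 ± 88.8 CPM). Delta-like cells averaged 87.9 ± 13.0, alpha-like 22.3 ± 10.6, mesenchymal-like 12.8 ± 9.36 and endothelial-like cells 9.41 ± 9.26 CPM. The few neuron-like cells had the highest mean of any class, 341 ± 89.6 CPM. Macrophage-like and Schwann-like cells averaged 49.1 ± 23.7 and 42.8 ± 55.0 CPM, from 15 and 13 counts in all. In all endocrine cells Dcx had 52.4 and 172 CPM in the mutant libraries and 140 and 55.3 CPM in the WT libraries, against 53.3, 55.0, 54.0 and 64.5 CPM in non-endocrine cells. The log2 difference was 0.86 ± 0.33 (edgeR, adjusted p = 0.0703) with the neuron-like cells and 1.19 ± 0.30 (adjusted p = 0.0134) without them. With the neuron-like cells kept, the difference of Dcx depended on the library left out. It was 1.11 without mutant A (adjusted p = 0.0309) and 1.22 without WT B (adjusted p = 0.0319), but 0.53 without mutant B (adjusted p = 0.257) and 0.67 without WT A (adjusted p = 0.217). DESeq2 gave 0.92 (adjusted p = 0.0345). After thinning, 22.6% of beta-like cells (478 of 2119) and 26.9% of ductal-like cells (73 of 271) had a Dcx count, against 1.41% of endothelial-like and 1.32% of mesenchymal-like cells.

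Tubb3 was higher in endocrine than in the remaining non-endocrine cells only once the neuron-like cells were left out. Endocrine cells had 39.1 and 51.0 CPM in mutant A and mutant B and 48.8 and 48.5 CPM in WT A and WT B. Non-endocrine cells had 114, 37.7, 173 and 122 CPM with the neuron-like cells, and 15.1, 4.92, 3.03 and 10.98 CPM without them. The log2 difference was -0.95 ± 0.34 (edgeR, adjusted p = 0.0540, lower in 3 of 4 libraries) with them and 2.70 ± 0.37 (adjusted p = 0.000701, higher in 4 of 4) without them. With them, leaving out mutant B gave -1.40 (adjusted p = 0.0008), and leaving out mutant A, WT A or WT B gave -0.79, -0.65 and -0.82 (adjusted p = 0.118, 0.235 and 0.203). DESeq2 gave -0.88 (adjusted p = 0.0473). Beta-like cells averaged 56.1 ± 12.3 CPM, delta-like 40.8 ± 22.7, alpha-like 13.5 ± 9.99, endothelial-like 7.92 ± 6.28, ductal-like 5.68 ± 4.59 and mesenchymal-like cells 4.58 ± 3.79 CPM (SD, n = 4).

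Stmn2 was lower in endocrine cells in both comparisons, and endothelial-like cells held 174 of the 299 counts outside the neuron-like and endocrine cells. Endocrine cells had 7.15 and 14.0 CPM in mutant A and mutant B and 3.39 and 15.1 CPM in WT A and WT B, against 144, 128, 288 and 259 CPM in all non-endocrine cells. Without the neuron-like cells, the non-endocrine values were 15.1, 59.4, 20.5 and 45.5 CPM. The log2 difference was -4.28 ± 0.46 (edgeR, adjusted p = 0.000213) with the neuron-like cells and -1.73 ± 0.26 (adjusted p = 0.00116) without them, lower in 4 of 4 libraries both times. Endothelial-like cells had 40.4 and 140 CPM in the mutant libraries and 69.9 and 123 CPM in the WT libraries, and after thinning 2.74% of beta-like cells had a Stmn2 count, against 10.6% of endothelial-like (30 of 284) and 1.85% of ductal-like cells. Among mesenchymal-like cells, mutant B stood apart, with 68.0 CPM, against 2.54 CPM in mutant A and 3.21 and 11.6 CPM in WT A and WT B. In each library the beta-like, alpha-like and delta-like levels lay between 2.76 and 17.9 CPM.

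The 2 neurofilament genes parted in endocrine cells. Nefl was close to absent there, with 1.85 and 1.14 CPM in mutant A and mutant B and 0.38 and 1.29 CPM in WT A and WT B, against 41.6, 25.6, 88.1 and 57.5 CPM in non-endocrine cells, and the log2 difference was -5.30 ± 0.48 (edgeR, adjusted p = 9.31e-05, lower in 4 of 4 libraries). Without the neuron-like cells the non-endocrine values were 1.89 to 3.16 CPM, from 19 counts in all. Nefm, the medium neurofilament chain, had 14.6 and 104 CPM in endocrine cells of mutant A and mutant B and 81.8 and 32.0 CPM in those of WT A and WT B, against 14.5, 11.1, 22.0 and 16.0 CPM in non-endocrine cells. In mutant A the compartments had nearly the same level. The log2 difference was 1.81 ± 0.44 (edgeR, adjusted p = 0.0122, higher in 4 of 4 libraries) and 2.79 ± 0.40 (adjusted p = 0.000914) without the neuron-like cells. When WT A was left out, Nefm missed the threshold in the comparison with all non-endocrine cells (adjusted p = 0.0501).

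Syp, encoding the synaptic vesicle protein synaptophysin, and Sncb, encoding beta-synuclein, were higher in endocrine cells, and the libraries numbered A had more of both than those numbered B. Endocrine cells had 122 and 48.6 CPM of Syp in mutant A and mutant B and 174 and 42.1 CPM in WT A and WT B, against 96.7, 6.58, 49.8 and 16.5 CPM in non-endocrine cells. For Sncb, the endocrine values were 33.5 and 8.29 CPM in the mutant libraries and 65.5 and 5.28 CPM in the WT libraries, against 18.1, 0.69, 7.11 and 1.00 CPM in non-endocrine cells. In each library the endocrine level was above the non-endocrine one, and the ratio was smallest in mutant A for both genes. The log2 difference of Syp was 1.67 ± 0.34 (edgeR, adjusted p = 0.00507), and 2.69 ± 0.45 (adjusted p = 0.00197) without the neuron-like cells. That of Sncb was 2.43 ± 0.43 (adjusted p = 0.0025), and 2.58 ± 0.44 (adjusted p = 0.00222) without them.

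Beta-cell transcripts in non-endocrine cells moved with these 2 genes. In mutant A, mesenchymal-like cells had 78.6 CPM of Syp and endothelial-like cells 60.5, whereas the other 3 libraries had 0 to 9.64 CPM in these classes. The 2 insulin genes summed to 91248 CPM in the mesenchymal-like cells of mutant A, against 1147, 11840 and 2643 CPM in those of mutant B, WT A and WT B. The 8 beta markers together reached 90452 CPM in all non-endocrine cells of mutant A and 2419 CPM in those of mutant B, against 13714 and 6706 CPM in WT A and WT B, with Mafa at 0 in all. Dcx and Tubb3 were also highest in mutant A in mesenchymal-like and endothelial-like cells, from 4 to 9 counts each. The part of beta-cell transcripts in the Syp, Sncb, Dcx and Tubb3 values was not tested. Without mutant A, Syp and Sncb were still called (every leave-one-out adjusted p was at most 0.0249 for Syp and 0.0170 for Sncb).

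Among endocrine classes, alpha-like and beta-like cells differed in most members. The test compared alpha-like with beta-like cells of the same libraries, and 26.6% of 12935 genes were called, 12.3% higher and 14.4% lower in alpha-like cells. Of 7 members tested, Nefm was called higher and Dcx, Tubb3, Syp and Sncb lower in alpha-like cells, and Rest and Nefl were too low to be tested. Nefm had 47.1 and 172 CPM in alpha-like cells of mutant A and mutant B and 166 and 81.3 CPM in those of WT A and WT B, against 9.16, 69.8, 65.5 and 6.89 CPM in beta-like cells, a log2 difference of 1.83 ± 0.30 (edgeR, adjusted p = 0.00064). In every library the alpha-like level of Nefm was at least 2 times the beta-like level. Dcx had 15.7 and 29.1 CPM in alpha-like cells of the mutant libraries and 11.02 and 33.2 CPM in those of the WT libraries, with a log2 difference of -2.45 ± 0.36 (adjusted p = 0.000277).

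The remaining members followed the direction of Dcx or were not called. Tubb3 had 9.43 and 12.3 CPM in alpha-like cells of mutant A and mutant B and 4.59 and 27.7 CPM in those of WT A and WT B, against 37.9, 64.9, 62.1 and 59.4 CPM in beta-like cells (log2 difference -2.07 ± 0.32, edgeR, adjusted p = 0.000386). Syp had 58.1, 18.8, 57.9 and 28.6 CPM in alpha-like cells, in the order mutant A, mutant B, WT A and WT B, against 136, 58.0, 213 and 52.0 CPM in beta-like cells (-1.52 ± 0.19, adjusted p = 7.46e-05). Sncb had 14.1, 1.94, 9.19 and 4.16 CPM in alpha-like cells, against 38.5, 10.8, 79.7 and 5.87 CPM in beta-like cells (-2.17 ± 0.37, adjusted p = 0.000858). For all 3 genes the alpha-like level was below the beta-like one in each library. Rcor1 (0.20 ± 0.13, adjusted p = 0.274) and Stmn2 (-0.36 ± 0.28, adjusted p = 0.373) were not called. Delta-like cells lay between alpha-like and beta-like cells in the mean levels of Dcx, Tubb3, Nefm, Syp and Sncb, though not for every gene in every library. Their mean ± SD overlapped that of beta-like cells for all 5 genes and that of alpha-like cells for all but Dcx. The 2 insulin genes summed to 137933 and 16690 CPM in delta-like cells of mutant A and mutant B and 88196 and 1249 CPM in those of WT A and WT B. All 8 beta markers, with Mafa at 0, summed to 155848 and 38265 CPM there in the mutant libraries and 108236 and 18305 CPM in the WT libraries, and their part in these levels was not tested. The 5 delta markers summed to 67315 and 56726 CPM in delta-like cells of the mutant libraries and 62150 and 90763 CPM in those of the WT libraries. The Ppy-rich cluster had 39.9 ± 6.78 CPM of Dcx, 66.6 ± 44.6 of Nefm, 74.6 ± 59.2 of Syp and 11.1 ± 5.09 of Tubb3 (SD, n = 4).

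The libraries differed in endocrine cells in ways that did not follow the genotype. In beta-like cells Dcx and Nefm were high in mutant B and WT A and low in mutant A and WT B (the values are given beside the comparisons of classes). Rcor1 had the same order with smaller differences, 61.5 and 107 CPM in the mutant libraries against 95.1 and 75.2 CPM in the WT libraries. Sncb and Syp were instead highest in the 2 A libraries, and Stmn2 was highest in the 2 B libraries. The 2 insulin genes also differed in beta-like cells, with 289339 and 42851 CPM in mutant A and mutant B and 151723 and 85305 CPM in WT A and WT B. Their part in the CPM of the other genes was not tested. Cycling beta-like cells, a separate class, had 41.5 and 200 CPM of Dcx in the mutant libraries and 140 and 45.6 CPM in the WT libraries, and 13.3 and 98.2 CPM of Nefm against 67.9 and 13.3 CPM.

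**Figure D4:**
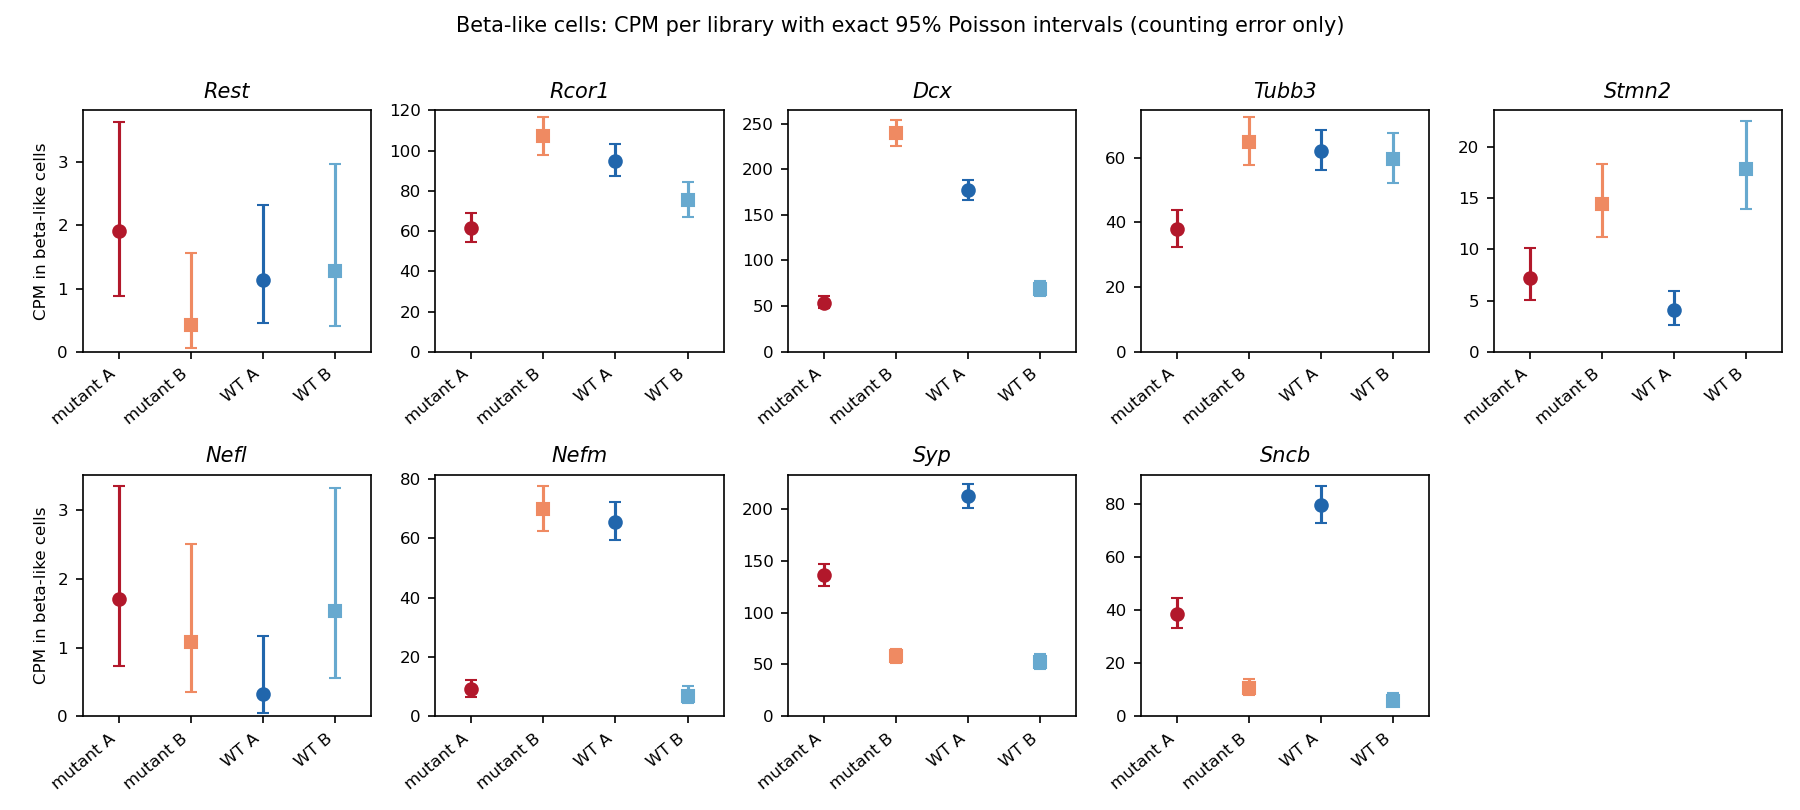
CPM (y axis, from 0) of the 9 genes in beta-like cells of mutant A, mutant B, WT A and WT B (x axis), with exact 95% Poisson intervals that cover counting error only. Dcx and Nefm are high in mutant B and WT A, Sncb and Syp are highest in the A libraries, and no gene has both mutant libraries above or below both WT libraries by more than the intervals.

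The comparison of genotypes, the question of the series, called no gene. In beta-like cells 0.0% of 14897 genes were called between mutant and WT by edgeR's quasi-likelihood test, where 10 genes above and 1 below had an unadjusted p under 0.05, and DESeq2 likewise called 0 (16 and 2 unadjusted). In alpha-like cells 0 of 10642 were called (5 higher and 6 lower unadjusted by edgeR, 10 and 9 by DESeq2). In non-endocrine cells 0 of 12509 were called by either tool (18 higher and 34 lower unadjusted by edgeR, 27 and 19 by DESeq2), and 0 of 12114 by edgeR without the neuron-like cells (19 and 16 unadjusted). Missing the threshold does not show that the groups are alike.

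For the members, the log2 differences between mutant and WT were smaller than their SEs in beta-like and alpha-like cells. They lay between -0.78 ± 0.96 for Sncb and 0.30 ± 0.75 for Dcx in beta-like cells, and between -0.62 ± 0.87 for Tubb3 and 0.78 ± 0.91 for Stmn2 in alpha-like cells. Rest was too low for a test in both classes. In non-endocrine cells Rest differed by -0.44 ± 0.45 (unadjusted p = 0.356; -0.50 ± 0.44 without the neuron-like cells), with 52.4 and 75.4 CPM in the mutant libraries against 114 and 68.5 CPM in the WT libraries, which overlap. Stmn2 (-0.95 ± 0.38, unadjusted p = 0.0401) and Nefl (-1.08 ± 0.45, unadjusted p = 0.0487) did not pass adjustment by edgeR over all genes, and both values rest on the neuron-like cells: without them the difference of Stmn2 was 0.26 ± 0.70 and Nefl could not be tested. Neuron-like cells were 3 of 176 and 10 of 892 non-endocrine cells in mutant A and mutant B and 4 of 253 and 5 of 437 in WT A and WT B.

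Among all genes tested, 18.8% were higher and 22.0% lower in endocrine cells, and the partners of REST were, as a list, near the middle. This list held 19 genes for REST complex subunits, corepressors and other proteins that act on or with REST, among them Btrc, Usp7 and Ctdsp2. Of the 19, 5 were higher and 4 lower in endocrine cells, and the median log2 difference was -0.02, against 0.02 over all genes tested. With the neuron-like cells left out, 4 were higher and 4 lower (median -0.07, against 0.03 over all genes). Btrc, an F-box subunit that marks REST for degradation, rose (1.14 ± 0.19, edgeR, adjusted p = 0.00206), as did Kdm1a, the histone demethylase of the CoREST complex (0.74 ± 0.16, adjusted p = 0.00792). Ctdsp2, a small phosphatase that acts with REST, fell (-0.95 ± 0.14, adjusted p = 0.000996), as did Hmg20b, a subunit of the CoREST complex (-1.07 ± 0.19, adjusted p = 0.0024). Sin3a itself differed by -0.02 ± 0.15 (adjusted p = 0.932).

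Genes known as targets of REST were mostly higher in endocrine cells. This list, like the others here, was chosen with earlier results of these data known, so its counts are a description. Of 23 tested, 14 were called higher and 4 lower, with a median of 1.03, against 18.8% higher, 22.0% lower and a median of 0.02 over all genes tested. With the neuron-like cells left out, 17 of 22 were higher and 2 lower, with a median of 1.95, against 19.3% higher, 22.1% lower and a median of 0.03 over all genes. Cplx2, which regulates vesicle fusion, differed by 2.45 ± 0.26 (edgeR, adjusted p = 0.000209), and Chga, a secretory granule protein, by 3.47 ± 0.42 (adjusted p = 0.000372). The lower ones included Stmn3, a relative of Stmn2 (-4.30 ± 0.41, adjusted p = 0.000121), and L1cam, an adhesion protein of axons (-2.99 ± 0.41, adjusted p = 0.000698). Without the neuron-like cells, Stmn3 was too low to test and L1cam differed by -1.88 ± 0.45 (adjusted p = 0.0114). The left arm of the RE1 element stood in the promoter windows of 4 of the 17 targets in the table, Celsr3, Scg2, Syn1 and Unc13a, and of 1.65% of all windows. The right arm stood in those of 2, Gria2 and Unc13a, and of 1.26% of all windows, and the full element in 0 of the 17.

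With the neuron-like cells kept, relatives of the cytoskeletal members were more often called lower than higher in endocrine cells, and those of the vesicle members were split. Of 17 cytoskeletal relatives, 2 were higher and 11 lower (median -0.998), against 18.8% higher and 22.0% lower over all genes. With those cells left out, 4 of 15 were higher and 5 lower (median -0.66), against 19.3% and 22.1% over all genes. Map2 and Map1b, microtubule-associated proteins, differed by 1.55 ± 0.27 and 1.11 ± 0.25 (edgeR, adjusted p = 0.00251 and 0.00831), whereas Vim and Nes, intermediate filament genes that mesenchymal cells express, differed by -7.50 ± 0.32 and -5.04 ± 0.26, all 4 of them called. Of 11 vesicle relatives, 6 were higher and 4 lower (median 0.89), and without the neuron-like cells 6 were higher and 3 lower (median 1.06). Syt13 and Syt7, synaptotagmins, differed by 3.36 ± 0.39 and 2.85 ± 0.34, and Sncg, encoding gamma-synuclein, by -6.12 ± 0.43, the opposite direction to Sncb. Without the neuron-like cells Sncg differed by -2.64 ± 0.44.

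Between alpha-like and beta-like cells, 2 of 19 genes of the REST partner list were higher and 0 lower, and 4 and 7 of 21 targets. Of 14 cytoskeletal relatives 3 were higher and 4 lower, and of 9 vesicle relatives 1 and 4. Over all genes tested, 12.3% were higher and 14.4% lower. No gene of any list was called between mutant and WT, where 0.0% of all genes tested were called in each class. The count of 0 in each list follows from that share and says nothing about the lists.

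The genes whose levels most resembled a member were listed by Pearson's r of log2(CPM + 1) over 24 sums, 6 classes in 4 libraries. The list is a description without a test, since the sums share libraries and depth. The classes were beta-like, cycling beta-like, alpha-like, delta-like, endothelial-like and mesenchymal-like cells. Ductal-like and Schwann-like cells, where mean Rest was highest, did not enter, nor did neuron-like cells, where Tubb3, Stmn2 and Nefl peaked. The r values therefore do not describe resemblance across all islet classes. For Rest the most alike genes were Fstl1 (r = 0.986), Fkbp10 (0.986) and Ldha (0.980). These genes had 7.2, 1.6 and 4.0 CPM on average in endocrine cells, against 1209, 77.3 and 180.0 CPM in non-endocrine cells. For Dcx the most alike were Wfs1 (0.943), Erc2 (0.923) and Cib2 (0.921), and for Tubb3 Zdhhc2 (0.896), Spock1 (0.888) and Acly (0.883). Nefm was most like Rab3ip (0.899), Aplp1 (0.886) and Aldh4a1 (0.884), and Stmn2 most like Nck1 (0.915), Sec14l1 (0.915) and Fkbp1a (0.903). Syp resembled Sez6l2 (0.942), Cldn7 (0.940) and Scg3 (0.939), and Sncb resembled Spcs3 (0.907), Commd9 (0.895) and Syp (0.895). Rcor1, which varied least among classes, reached at most 0.782 (Slc38a9), and Nefl had too few counts to be compared.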

How the data were processed

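The values are deposited counts, whole numbers per gene and barcode for 4 libraries, not normalized by the authors. GRCm38 and GRCh38 are the builds in the submitters' processing notes; no source used here gives the aligner, annotation, strand setting, molecular barcode collapsing or barcode filter. The 4 libraries held 9282495, 12236110, 12835199 and 10350699 counts (mutant A, mutant B, WT A, WT B). The series describes 2 biological replicates per genotype. The members and gene lists were chosen with earlier results of these data known. Named list genes are the 2 of smallest unadjusted p in each direction between endocrine and non-endocrine cells.

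Barcodes needed 500 counts, 250 genes and no more than 25% mitochondrial counts (6566 of 6948 passed), and Scrublet removed 40 (0.61%). Scanpy 1.11.5 clustered the cells (2000 variable genes without members and list genes, 30 components, 15 neighbours, Leiden resolution 1) into 23 clusters. Clusters were named by marker score with at least 3 detected markers; an unnamed shallow cluster (275 cells), the Ppy-rich cluster (198) and one led by granulocyte genes (42) entered neither compartment. Counts were summed per library and class and tested with edgeR 4.0.16 (TMM, filterByExpr, quasi-likelihood F test, Benjamini-Hochberg over all genes); the SE is the absolute log2 difference divided by the square root of F. Fits were run on simulated counts with low random variation and no differences between libraries other than depth. That setting does not give the power or the error rate in these 4 libraries. Alternatives were RLE factors, no filter, DESeq2 1.42.0, at most 10% mitochondrial counts, no hormone genes, each library left out, and with or without a block. Rebuilt cell classes may differ from the authors' own. Loci are from GENCODE, promoters from RefSeq.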

Additional observations from a re-analysis of the deposited data

Results flagged for a closer look

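In endocrine cells 3 members moved in opposite directions between mutant and WT in the 2 library numbers, with intervals of counting error that did not overlap within either number. The CPM ratio of mutant to WT in beta-like cells was 0.647 within A and 1.42 within B for Rcor1, 0.304 and 3.48 for Dcx, and 0.140 and 10.1 for Nefm. CPM is a share of all counts, insulin included. The 2 insulin genes summed to 289339 and 42851 CPM in beta-like cells of mutant A and mutant B. In those of WT A and WT B they summed to 151723 and 85305 CPM, and their part in these ratios was not tested. Nefm had ratios of 0.283 within A and 2.12 within B in alpha-like cells and of 0.131 and 3.96 in delta-like cells. In all endocrine cells the ratios within A and B were 0.688 and 1.44 for Rcor1, 0.375 and 3.12 for Dcx, and 0.178 and 3.24 for Nefm. In non-endocrine cells Syp went the other way, with 1.94 within A and 0.398 within B. The insulin genes summed there to 81310 and 1365 CPM in mutant A and mutant B and 11735 and 4534 CPM in WT A and WT B. Neuron-like cells held 51.1% of the non-endocrine Syp counts. The part of beta-cell transcripts or neuron-like cells in the Syp ratios was not tested. The difference between the numbers was not tested, since each number holds 1 library per genotype, and what the numbers stand for is not given in the labels.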

How the results depend on the processing

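Rest was lower in endocrine cells with an adjusted p under 0.05 under every alternative run, and leaving out 1 library moved its log2 difference between -6.15 and -5.42. Tubb3 changed sign between endocrine and non-endocrine cells without the neuron-like cells (2.70) and without neuron-like and Schwann-like cells (2.71), both chosen after seeing the data; the 22 cells hold 92.4% of its non-endocrine counts. Over all members and alternatives, 109 values of the endocrine comparison kept their direction and their side of the threshold, and 2 changed sign (Tubb3). Another 10 newly passed the threshold (6 of Dcx, 4 of Tubb3), and 3 no longer passed it (Syp and Sncb with no library block, Nefm without WT A). In the alpha-like comparison 67 kept both and 3 no longer passed.

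Genes higher in endocrine cells numbered 3037, against 1587 with no library block. In alpha-like against beta-like cells, 1586 were higher (357 with no block, 1054 to 1299 with 1 library left out, the lowest without WT B) and 1857 lower (489 with no block, 2961 with no filter on low counts). Between mutant and WT, leaving out 1 library gave 0 to 1 higher genes in beta-like cells, 0 to 1 higher and 0 to 8 lower in alpha-like cells, and 0 to 135 higher and 0 to 81 lower in non-endocrine cells, the highest without mutant B; no filter gave 12 higher there. An arm left with 1 library is assumed to vary like the other. The log2 differences of members in beta-like cells changed sign when 1 library was left out, ranging from -0.47 to 0.39 for Rcor1, -1.23 to 1.27 for Dcx, -0.68 to 0.16 for Tubb3, -0.56 to 1.37 for Stmn2, -2.06 to 2.70 for Nefm, -1.23 to 1.01 for Syp and -2.005 to 2.17 for Sncb. Without the library block, Syp and Sncb were not called between endocrine and non-endocrine cells (adjusted p = 0.157 and 0.0852), nor were Nefm, Syp and Sncb between alpha-like and beta-like cells (adjusted p = 0.312, 0.0808 and 0.112). The title number as a replicate block gave 0 calls in all 3 classes. Deviations of libraries with the same number correlated at 0.03, 0.06 and 0.40 in beta-like, alpha-like and non-endocrine cells. Clusters of alpha-like cells also split by number. The main fits of genotype had no block because the labels do not say that the numbers pair libraries. An effect of the number itself was not tested. Causes were not tested. Depth limits Rest and Nefl in endocrine cells, where a class held 0 to 9 counts a library.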
